A study of Mus musculus with 11 samples.

Results

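Of 374620 merged regions with a ChIP-seq peak of ZIC2, OTX2, SOX2, POU5F1 or POU3F1 in mouse epiblast stem cells (EpiSCs), 1321 (0.353%) held peaks of 4 or 5 of these TFs and are called hotspots here. Regions were made by joining all EpiSC peaks that shared at least 1 bp on chromosomes 1 to 19 and X, so the hotspots were chosen by their EpiSC peaks, and the number of TFs in them is not a finding. All cultures were EpiSCs of strain 129/Sv that were transfected with a pCAGGS-BLRP-BirA plasmid for 1 TF, and the biotinylated TF was pulled down with streptavidin. The EpiSC group grew in N2/B27 medium that held activin at 20 ng/ml and Fgf2 at 10 ng/ml. The activin-free group was freed from activin for 18 h, with Fgf2 also at 10 ng/ml. Each TF was profiled in 1 library per culture, which gives 10 peak lists and no replicate error. The tagged TF came from a transient plasmid with a strong general promoter, so its level need not be that of the TF the cell makes itself. The paper that reported these data chose the plasmid dose to reach a physiological level. It found nuclear TF raised least for ZIC2 and most for POU3F1. Intervals given with shares are 95% Wilson intervals and those given with differences are 95% Newcombe intervals. Both cover counting error only, since the regions of 1 library are not replicates.

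EpiSCs are grown from the postimplantation epiblast and stand for primed pluripotency, which depends on activin and Fgf signals. POU5F1 (OCT4) and SOX2 are core regulators of pluripotency. OTX2 is a homeodomain TF of the epiblast and the anterior neural plate. ZIC2 is a zinc finger TF of the epiblast and neural tissue, and POU3F1 (OCT6) is a POU TF of the epiblast and the early neural lineage. Places where several TFs bind close together are often enhancers, but a peak list does not show whether a region is active.

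The lists differed in length, from 62457 peaks for POU5F1 to 122053 for ZIC2 among the EpiSC lists and from 87907 for SOX2 to 126908 for POU5F1 among the activin-free lists. The score of a peak is the p-value of MACS on a scale of -10 log10, with a minimum of 50. Read depth is unknown, since the lists hold no reads, and the input library was not analysed here. In both cultures, the coding exons of each TF's own gene, where plasmid DNA can give peaks, carried a peak that scored 3100 in its list. The EpiSC ZIC2 list also had peaks of score 3100 over coding exons of Sox2 and Pou3f1 and one of 2029 over those of Pou5f1. Only 2 hotspots overlapped coding exons of the 5 TF genes, 1 at Otx2 and 1 at Pou5f1.

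The centres of 6 hotspots are shown to make the regions concrete. Each is a window of 300 bp on the plus strand of mm9 around the middle of the core, the stretch covered by most TFs. They were taken from the hotspots named by rank of their lowest score, and show regions with 5 TFs (Shisa3, Lrp1b) and regions without ZIC2 (Dkk1, Robo1), SOX2 (Inpp5f) or POU3F1 (Skil). Capitals mark the letters searched for on both strands. These were GGATTA for OTX2, ATGCAAAT or ATGCATAT (the octamer) for the POU TFs, ACAAAA (or its variant ACAAAG) and ACAATA (or its variant ACAATG) for SOX2, and TGCTGGG or GCTGTGG for ZIC2.
Shisa3, chr5:68024585-68024884: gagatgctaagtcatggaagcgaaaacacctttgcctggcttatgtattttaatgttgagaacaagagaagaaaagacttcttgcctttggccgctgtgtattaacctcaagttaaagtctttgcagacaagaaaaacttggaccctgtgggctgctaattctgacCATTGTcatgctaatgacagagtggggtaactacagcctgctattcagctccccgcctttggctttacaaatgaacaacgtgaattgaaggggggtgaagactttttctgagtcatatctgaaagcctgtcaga
Lrp1b, chr2:40766439-40766738: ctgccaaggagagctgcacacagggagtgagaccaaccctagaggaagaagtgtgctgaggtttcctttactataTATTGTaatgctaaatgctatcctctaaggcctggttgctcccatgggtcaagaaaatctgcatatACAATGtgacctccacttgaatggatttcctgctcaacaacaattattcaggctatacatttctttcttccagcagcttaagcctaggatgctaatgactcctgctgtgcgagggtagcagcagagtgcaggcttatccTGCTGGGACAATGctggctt
Dkk1, chr19:30579971-30580270: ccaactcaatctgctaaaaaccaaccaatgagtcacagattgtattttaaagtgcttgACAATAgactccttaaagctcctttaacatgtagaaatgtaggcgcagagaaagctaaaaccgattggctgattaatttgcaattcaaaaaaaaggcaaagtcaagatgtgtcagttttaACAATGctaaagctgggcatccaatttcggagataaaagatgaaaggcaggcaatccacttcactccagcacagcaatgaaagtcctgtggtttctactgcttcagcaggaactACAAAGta
Robo1, chr16:72699528-72699827: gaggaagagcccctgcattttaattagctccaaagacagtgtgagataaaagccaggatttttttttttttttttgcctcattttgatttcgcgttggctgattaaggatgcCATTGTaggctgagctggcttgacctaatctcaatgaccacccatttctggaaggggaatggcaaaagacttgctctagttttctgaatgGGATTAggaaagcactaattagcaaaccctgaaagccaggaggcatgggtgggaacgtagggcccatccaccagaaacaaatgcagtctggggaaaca
Inpp5f, chr7:135815540-135815839: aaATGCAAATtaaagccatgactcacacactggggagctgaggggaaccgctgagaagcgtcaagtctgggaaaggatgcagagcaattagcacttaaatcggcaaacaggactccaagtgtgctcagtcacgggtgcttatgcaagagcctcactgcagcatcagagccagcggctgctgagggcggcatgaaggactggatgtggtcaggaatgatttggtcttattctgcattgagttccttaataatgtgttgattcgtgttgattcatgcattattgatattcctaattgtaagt
Skil, chr3:30994839-30995138: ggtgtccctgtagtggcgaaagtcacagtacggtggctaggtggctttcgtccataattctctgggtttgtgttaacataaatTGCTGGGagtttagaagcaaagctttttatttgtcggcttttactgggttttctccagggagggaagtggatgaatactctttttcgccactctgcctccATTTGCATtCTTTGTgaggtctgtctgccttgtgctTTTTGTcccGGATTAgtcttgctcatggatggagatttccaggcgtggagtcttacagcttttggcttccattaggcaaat

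The windows at Shisa3, Lrp1b, Robo1, Inpp5f and Skil lay in introns, and that at Dkk1 lay between genes. Skil was the only one of the 6 whose window held letters of all 4 kinds, with 5 matches. The Lrp1b window, over which peaks of all 5 TFs lay, held 3 SOX matches and 1 ZIC match but neither GGATTA nor an octamer. The Shisa3 window, also under peaks of all 5 TFs, held 1 match, to SOX. A match is a description of the letters and not a binding site.

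Among the hotspots, 1198 held 4 TFs and 123 held 5. Their median width was 2813 bp, from 869 to 14593 bp, against 2090 bp for regions with 3 TFs. A hotspot held a median of 4 peaks and at most 13. ZIC2 was the missing TF in 662 of the 1198 regions with 4 TFs (55.3%, 52.4 to 58.1%), although the ZIC2 list was the longest. SOX2 was missing in 213 (17.8%), POU3F1 in 146 (12.2%), OTX2 in 92 (7.68%) and POU5F1 in 85 (7.10%), and the POU5F1 list was the shortest. The commonest set was therefore OTX2, SOX2, POU5F1 and POU3F1. Lack of ZIC2 was not particular to hotspots. ZIC2 had a peak in 659 of the 1321 hotspots (49.9%), against 31.2% of regions with 3 TFs and 32.1% of all regions. By the rule, hotspots hold more TFs than the other regions. When every list was cut to its 50000 best peaks by score, ZIC2 was missing in 65.3% of regions with 4 TFs, POU3F1 in 13.5% and SOX2 in 11%, so that the order of the last pair turned.

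**Figure D1:**
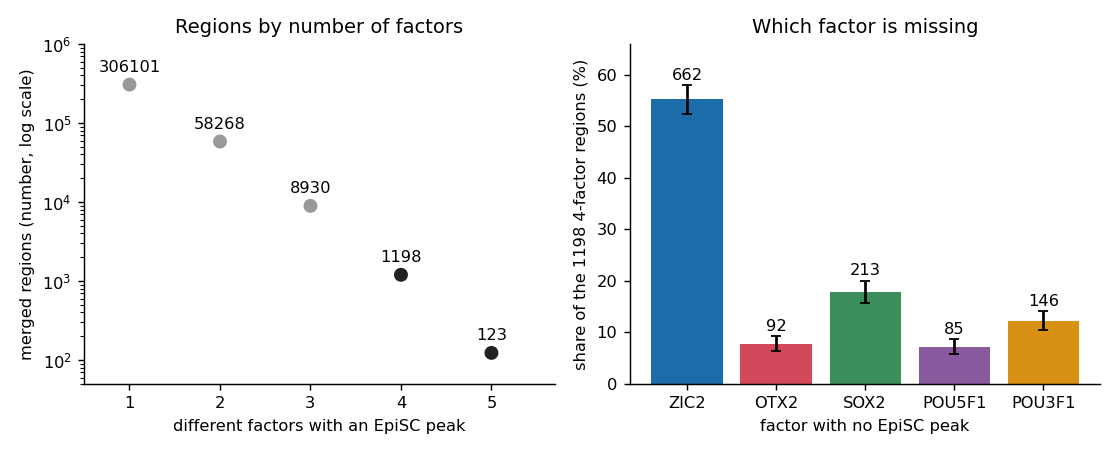
Left, number of merged EpiSC regions (log axis) against the number of different TFs with a peak, with hotspots in black. Right, share of the 1198 regions with 4 TFs by the TF that had no peak, with 95% Wilson intervals and the number of regions above each bar. ZIC2 was missing in 662 regions, more than all other TFs together.

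Joining peaks into chains does not mean that all TFs met at the same place. All TFs of a hotspot shared at least 1 base in 524 of the 1321 hotspots, which were 492 of the regions with 4 TFs and 32 of the regions with 5. In 637 hotspots (48.2%) at most 3 TFs lay over the same base, and in 114 (8.63%) at most 2. POU5F1 and POU3F1 peaks shared a base in 1064 of the 1090 hotspots that held both (97.6%). OTX2 and POU3F1 did so in 976 of 1083 (90.1%), and SOX2 and POU3F1 in 863 of 962 (89.7%). The pairs of ZIC2 with the POU TFs shared a base least often, in 375 of 574 hotspots for POU5F1 (65.3%) and in 332 of 513 for POU3F1 (64.7%), close to ZIC2 and SOX2 with 304 of 446 (68.2%). ZIC2 and OTX2 shared a base in 497 of 567 (87.7%). Wide peaks share bases more easily, and the POU3F1 peaks in hotspots had a median width of 1350 bp against 746 bp for SOX2. At the limit of the rule, 152 of the 8930 regions with 3 TFs lay within 150 bp of a peak of a further TF.

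The scores chose no member beyond the minimum of 50 and are given as a description. The best score of POU3F1 in a hotspot had a median of 458 (193 over the whole list), that of ZIC2 224 (169.98) and that of POU5F1 200.3 (133). OTX2 had 142 (99.2) and SOX2 115 (95.5). These set the best of several peaks beside single peaks. Counted by single peaks, the median in hotspots was 210 for ZIC2 against 283 in regions with 3 TFs, and 378 against 394 for POU3F1. It was 126 against 115 for OTX2, 103 against 99.1 for SOX2 and 176 against 156 for POU5F1. The lowest of the scores of a hotspot had a median of 71.0. It was under 60 in 382 hotspots (28.9%) and at least 100 in 326 (24.7%). SOX2 had the lowest score in 444 of the 1108 hotspots that held it (40.1%), and POU3F1 in 97 of 1175 (8.26%). Scores of different libraries do not share a scale. The median of the whole list was also lowest for SOX2 and highest for POU3F1, so this order says nothing of binding strength.

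**Figure D2:**
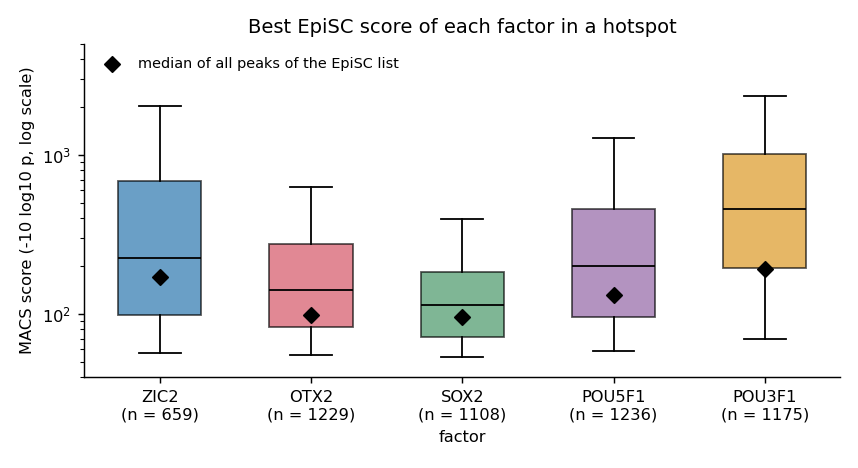
Best EpiSC score of each TF in the hotspots that held it (log axis of -10 log10 p). Boxes span the quartiles with the median as a line, whiskers reach the 5th and 95th percentiles, and diamonds give the median of the whole list. Each box median lies above its diamond, where the boxes hold the best of several peaks and the diamonds single peaks, and POU3F1 has the highest at 458.

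Regions with 5 TFs are ranked here by their lowest score, only to choose which to name. The first, chr17:4625731-4626957, lay between genes 369 kb from the nearest protein-coding transcription start site (TSS), that of Arid1b, a subunit of a chromatin remodelling complex. It stood apart from the others. Its EpiSC scores were 3100 for ZIC2, OTX2 and POU5F1, 805 for POU3F1 and 601 for SOX2, and all 5 activin-free scores were at least 3000. No other hotspot had 5 activin-free scores of at least 3000 or more than 2 such EpiSC scores. The 300 bp at its centre consisted wholly of repeats of TCCAT or TCCAC (100% of the window, in runs of at least 3 units on either strand), and no letters of the 4 kinds were found there. Only 1 other hotspot core held such a run, over 25% of its window. The input library was not analysed here, and the part of the repeat in these scores was not tested.

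The second, chr5:68022630-68025776, lay in an intron 25.1 kb from the TSS of Shisa3, which encodes an inhibitor of Wnt and Fgf receptors. Its EpiSC scores rose from 373 for OTX2 through 644 (ZIC2), 742 (SOX2) and 841 (POU5F1) to 931 for POU3F1. Without activin the ZIC2 score there was 173 and the SOX2 score 1447. A pair of regions with 5 TFs had Lrp1b, a large receptor of the LDL receptor family, as the nearest gene. At chr2:40766081-40767664, in an intron, the EpiSC scores lay between 182 for OTX2 and 454 for POU3F1. At chr2:40186192-40188732 the ZIC2 score of 806 stood above the others, which were 181 to 278, and at most 3 TFs lay over 1 base. These regions lay 209 and 371 kb from the TSS. The regions at Shisa3, at chr2:40766081-40767664, at Cdh18, a neural cadherin, and at St7 had all 5 TFs over 1 base. The region at Cdh18 was 211 kb from the TSS and that at St7 (chr6:17697481-17700198) 0.33 kb.

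**Figure D3:**
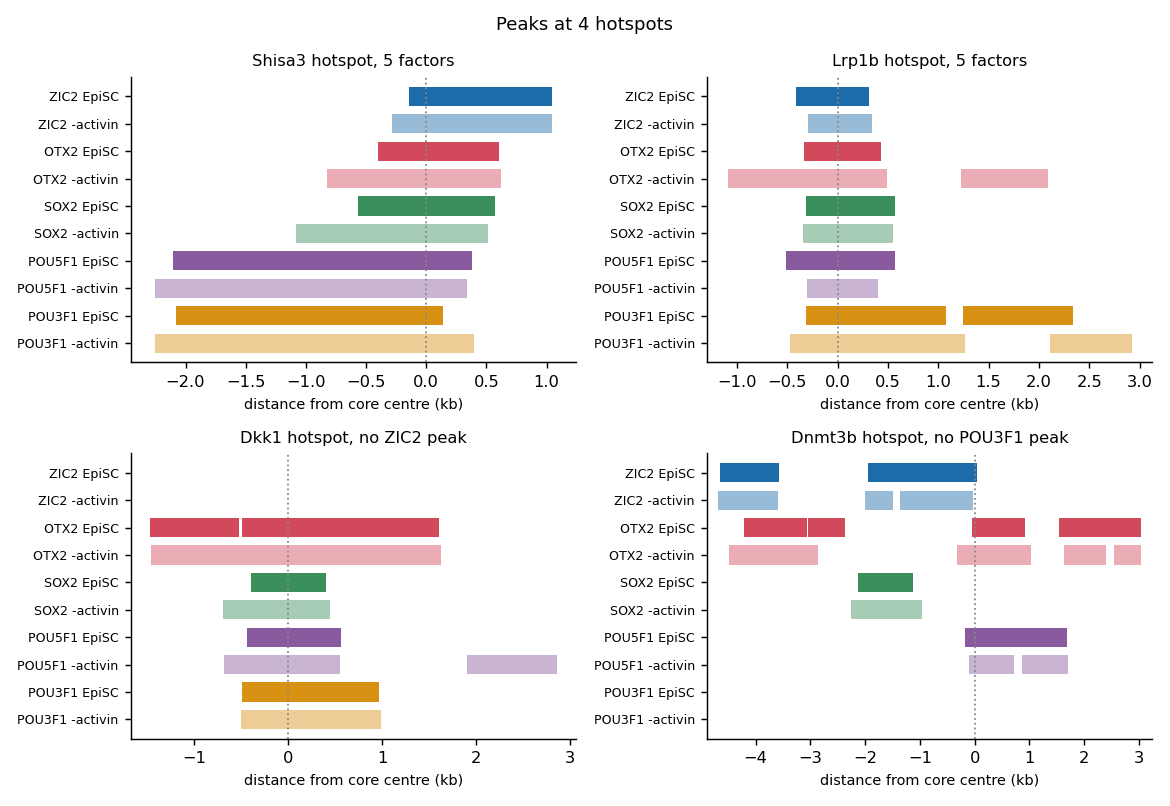
Peaks at 4 hotspots, as bars along the distance from the core centre in kb, with 1 row per TF and culture (full colour for EpiSC, pale for activin-free). Peaks of the surrounding 1.5 kb are drawn too. All 5 TFs cover the centre at Shisa3 and Lrp1b, ZIC2 has no bar at Dkk1, and POU3F1 has none at Dnmt3b.

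By midpoint, hotspots taken as a whole lay nearer to TSSs of protein-coding transcripts than regions with 3 TFs did. The midpoint was within 5 kb of such a TSS in 313 of 1321 hotspots (23.7%), in 1600 of 8930 regions with 3 TFs (17.9%) and in 15.1% of all regions. The difference from regions with 3 TFs was 5.78 percentage points (3.42 to 8.27) and had the same direction on 16 of 20 chromosomes. Within 50 kb the shares were 60.6%, 50.5% and, for all regions, 55%. The median distance was 30.2 kb for hotspots and 48.9 kb for regions with 3 TFs. Within 1 kb the difference from regions with 3 TFs was smaller. The midpoint was that near in 11.1% of hotspots and 9.81% of regions with 3 TFs (1.32 points, -0.39 to 3.22). The middle of the core was that near in 8.33% and 8.45% (-0.13 points, -1.62 to 1.58). Against all other regions these differences were 6.0 points (4.42 to 7.81) for the midpoint and 3.33 (1.95 to 4.94) for the core. The interval of the difference at 5 kb included 0 when all TFs had to share a base. Stretches with 4 or 5 TFs over 1 base were within 5 kb of a TSS in 17.0%, and stretches with 3 in 17.3% (-0.24 points, -3.13 to 3.03). With both classes made from the other choices of peaks it stayed above 0, from 3.63 points (0.71 to 6.79) with peaks under 2000 bp to 10.1 points (5.66 to 14.9) with the best 50000 of each list. Without the ZIC2 list, 13.4% of 770 regions with all 4 other TFs and 9.30% of 6633 regions with 3 were within 5 kb (4.07 points, 1.74 to 6.75). The classes also differed in which TFs they held, with ZIC2 in 49.9% of hotspots and 31.2% of regions with 3 TFs. Among those with ZIC2, 37.5% of hotspots and 41.4% of regions with 3 TFs were within 5 kb. Among those without it, the shares were 9.97% and 7.28%. The part of this mix of TFs in the difference was not tested.

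The missing TF went with the distance. Of the 662 hotspots without ZIC2, 66 were within 5 kb of a TSS (9.97%), against 247 of the 659 with ZIC2 (37.5%), a difference of 27.5 points (23.1 to 31.8). By the rule, every hotspot that lacked another TF held ZIC2, so the other TFs were compared among the 659 hotspots with ZIC2. There a TSS was within 5 kb of 73 of 146 hotspots without POU3F1 (50%) and of 174 of 513 with it (33.9%), a difference with minus without of -16.1 points (-25.0 to -7.04). For POU5F1 the shares were 44.7% without and 36.4% with, and the interval of that difference, -19.5 to 2.59 points, included 0. For OTX2 they were 26.1% without and 39.3% with (13.2 points, 2.68 to 22.1), and for SOX2 31% without and 40.6% with (9.60 points, 1.71 to 17.0). The rule still ties these groups. Hotspots without a TF held all other TFs, while those with it pool regions of 5 TFs and regions that lack another TF. Of the 123 regions with 5 TFs, 46 were within 5 kb of a TSS (37.4%). Among all 1321 hotspots, which mix those with and without ZIC2, the shares with the TF were lower, at 20.4% (POU3F1), 22.2% (POU5F1), 22.3% (SOX2) and 23.5% (OTX2). The differences there were -8.69 points for SOX2 (-15.6 to -2.34) and -2.57 for OTX2 (-12.6 to 5.69), opposite in sign to those among hotspots with ZIC2. Median distances were 4.82 kb without POU3F1, 12.5 kb without POU5F1, 22.9 kb without SOX2, 42.8 kb without ZIC2 and 58.9 kb without OTX2, and 12.9 kb for regions with 5 TFs. In regions with 3 TFs the split by ZIC2 had the same direction (41.4% with, 7.28% without). For the other TFs, regions with 3 TFs were not divided by ZIC2, so their shares mix those with and without it. They were 8.35% with and 45.2% without for POU3F1, and 10.9% with and 36.2% without for POU5F1. For SOX2 they were 18.3% with and 17.2% without. For OTX2 regions with 3 TFs gave 26.2% with and 7.48% without, a difference of 18.7 points (17.2 to 20.2). The GC content of the hotspot core also differed by missing TF, with medians of 46% without POU3F1 and 37% without ZIC2. Its part in the result was not tested.

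**Figure D4:**
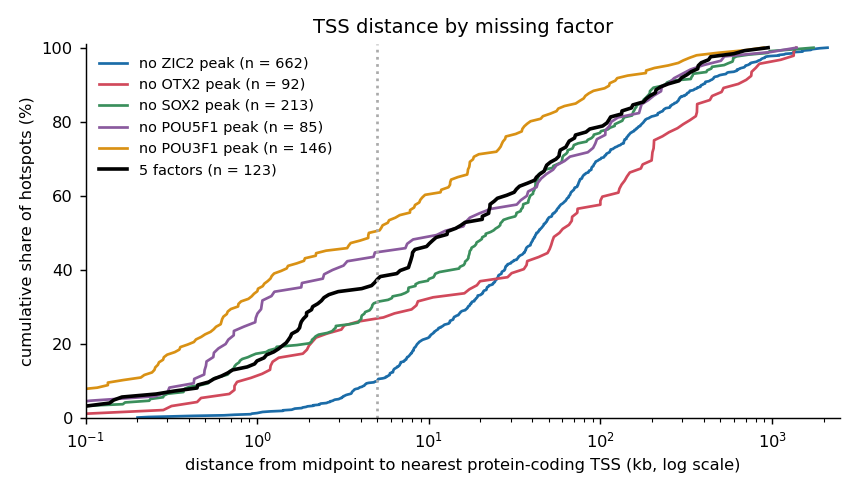
Cumulative share of hotspots against the distance from the midpoint to the nearest protein-coding TSS in kb (log axis), by missing TF, with regions of 5 TFs in black and 5 kb dotted. At 5 kb the curves run from 9.97% without ZIC2 to 50% without POU3F1.

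Most hotspots were outside exons. The middle base of the core lay in an intron in 698 hotspots (52.8%) and between genes in 582 (44.1%). It lay in an untranslated exon in 29 (2.20%) and in a coding exon in 12 (0.908%). Introns held 5.48 points more of the hotspots (2.59 to 8.35) than of the regions with 3 TFs, of which 47.4% were intronic. By chromosome, the number ranged from 159 on chromosome 2 (8.75 per 10 Mb) to 23 on chromosome X (1.38 per 10 Mb). Adjacent hotspots were a median of 1003 kb apart, and 127 of 1301 gaps (9.76%) were under 50 kb.

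Letters bound by the OTX2, SOX and POU families were commoner in the cores than 1000 bp to either side. Cores and flanks were searched over windows of 300 bp, centred on the middle of the core or 1000 bp from it, whatever the core's length. With a median hotspot width of 2813 bp, these flanks can lie inside the same hotspot, under peaks of its TFs. GGATTA was in 17.2% of hotspot cores and 11.4% of flanks (5.79 points, 3.47 to 8.21). The octamer was in 12.0% and 6.17% (5.87 points, 3.95 to 7.92), and SOX letters in 78.6% and 69.8% (8.74 points, 5.88 to 11.5). ZIC letters were in 10.3% of cores and 11.2% of flanks, with an interval of the difference of -2.93 to 1.15 points. Against flanks at 2000 bp the ZIC difference was -2.31 points (-4.33 to -0.18). Of the cores of all regions, 14.7% held GGATTA, 7.31% the octamer, 63.4% SOX letters and 15.8% ZIC letters. None of the 4 kinds differed beyond its interval between hotspot cores and cores of regions with 3 TFs, and the intervals allowed up to 3.54 points for GGATTA, 2.93 for the octamer, 3.95 for SOX and, in the other direction, -2.22 for ZIC. Stretches of at least 20 bp of alternating purines and pyrimidines were rarer in hotspot cores (2.73%) than in cores with 3 TFs (4.74%), in the flanks (5.87%) and in all cores (6.17%).

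Letters for OTX2, SOX2 and ZIC2 were commoner where the TF had its own peak. GGATTA was in 219 of 1229 cores of hotspots with OTX2 (17.8%) and in 8 of 92 without it (8.70%), a difference of 9.12 points (1.32 to 13.9). SOX letters were in 81.0% of cores with SOX2 and 66.2% without (14.8 points, 8.28 to 21.7), and ZIC letters in 13.1% with ZIC2 and 7.55% without (5.50 points, 2.23 to 8.80). The flanks differed too. GGATTA was in 5.98% of flanks of hotspots without OTX2 and 11.4% of flanks of all hotspots. For SOX letters these shares were 62.9% without SOX2 and 69.8%, and for ZIC letters 9.29% without ZIC2 and 11.2%. Median GC content of the core was 40.7% with ZIC2 and 37% without. The part of the surrounding sequence in these differences was not tested. For the octamer the intervals included 0, both for POU5F1 (5.32 points, -2.37 to 9.58) and for POU3F1 (3.52 points, -2.48 to 7.67). Only 85 hotspots lacked POU5F1 and 146 lacked POU3F1. In regions with 3 TFs the octamer was commoner with the peak, by 8.11 points for POU5F1 (6.87 to 9.28) and 7.26 for POU3F1 (5.97 to 8.47). In 183 hotspot cores (13.9%) no letters of any kind were found, and 4 cores (0.303%) held all 4 kinds.

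The hotspots had 1072 nearest protein-coding genes, which are 4.83% of the 22193 on these chromosomes. Most of these genes (896) had 1 hotspot and 48 had at least 3. Pbx3, a TALE homeodomain cofactor, had 8 hotspots within 38.0 kb of a TSS, of which 4 lacked ZIC2 and 1 held 5 TFs. Of these 8, 7 held at least 4 TFs in the activin-free lists. Zcchc7, a zinc knuckle gene, had 6. Lin28b (an RNA-binding protein that blocks let-7 maturation), Robo1 (a receptor for Slit), Runx1t1 (a transcriptional corepressor) and Gm17624 had 5 each. The 5 at Lin28b were 0.42 to 58.5 kb from a TSS and 4 of them lacked ZIC2. Those at Gm17624 were 465 to 1791 kb away, so that the nearest gene says little there.

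Genes of the epiblast state were counted by list. A gene is said to have a hotspot where its TSS is the nearest, at any distance. Of 18 core pluripotency regulators 7 had one, among them Pou5f1, Sox2, Sall4, Lin28b, Sall1 and Zfp462, and of 17 genes of the formative and primed epiblast 7 had one (Fgf5, Otx2, Dnmt3b, Sox3, Foxd3, Pim2 and Cdh2). The hotspot of Zfp462 lay 332 kb from the TSS. Of 14 naive pluripotency genes Gbx2 had one (7.14%), and of 21 genes of the primitive streak and endoderm Gata6 (4.76%), beside 4.83% of all genes. A gene with more genome around it is nearest to more regions of any kind, so hotspots were also counted per 10 Mb of the genome nearest to each list. Core pluripotency regulators had 29.8 hotspots per 10 Mb and epiblast genes 16.6, against 5.01 over all genes. Naive genes had 2.79 and genes of the primitive streak and endoderm 3.96, from 1 hotspot each. Of the 11 hotspots at core regulators 5 were at Lin28b and 1 at Pou5f1. Without Lin28b the density was 16.8, and without both 14.1. Of the 470 merged regions at core regulators 11 were hotspots (2.34%), against 0.353% of all. Of the 5 TF genes, Otx2, Sox2 and Pou5f1 were nearest to 1 hotspot each. The hotspots at Pou5f1 and Otx2 are the pair over coding exons of the TF genes, where plasmid DNA can give peaks.

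Dnmt3b, a de novo DNA methyltransferase, had a hotspot 5.38 kb from its TSS (chr2:153467217-153472388) with a ZIC2 score of 618, OTX2, SOX2 and POU5F1 scores of 224, 262 and 283, respectively, and no POU3F1 peak. The same 4 TFs were listed there without activin. Fgf5, a marker of the primed epiblast, had one at 29.2 kb (chr5:98711130-98713590) without a SOX2 peak, where ZIC2 scored 1167 and POU5F1 92.9. In the activin-free lists a SOX2 peak of score 139 was present at Fgf5. Sox3, a SOX TF of the epiblast and neural plate, had a hotspot at 6.30 kb without OTX2, and SOX2 was not listed there without activin. The region at Sox2 itself lay 227 kb away, lacked a SOX2 peak and had scores of 51.5 to 387.

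Of 25 Wnt pathway genes 5 had one, and that of Tcf7l2 lay 199 kb from the TSS. Dkk1, a secreted Wnt inhibitor, had a hotspot 43.5 kb away (chr19:30579624-30581728) where OTX2 scored 699, SOX2 235, POU5F1 340 and POU3F1 404. It held no ZIC2 peak in either culture. Rspo3, which raises Wnt signalling, had 2, the nearer at 321 kb, and Sp8, a zinc finger TF, had 3. Of 19 Fgf pathway genes, Fgf5 and Spred1, an inhibitor of Ras signalling, had hotspots, and both of those at Spred1 held 5 TFs. Of 20 nodal and activin genes, Acvr2a, an activin receptor, and Skil, a repressor of Smad signalling, had one (10%, beside 4.83% of all genes). The hotspot of Skil lay 0.929 kb from the TSS. That of Acvr2a lay 812 kb away, so that the nearest gene says little there. Per 10 Mb the nodal and activin genes had 4.16 hotspots, the Fgf genes 9.69 and the Wnt genes 14.6. At Skil (chr3:30990394-30995707) the SOX2 peak of score 116 was not listed without activin. No hotspot had one of 16 Notch genes or 22 ribosomal protein genes as its nearest gene. These lists are nearest to 2.27 and 1.15 Mb of the genome beside a density of 5.01 hotspots per 10 Mb over all genes, and nothing is read from the 0.

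Of 20 long neuronal genes 11 had a hotspot (55%), but these genes are nearest to 37.3 Mb of the genome, and the density was 3.76 per 10 Mb, under the 5.01 of all genes. Of 21 axon guidance genes 10 had one, at 9.23 per 10 Mb. Neural plate and forebrain genes (7 of 23) had 12.4 per 10 Mb, and neural border and crest genes (4 of 12) had 13.7, including 3 hotspots at Zeb2, a repressor of Cdh1. Forkhead genes (4 of 16) had 10.9, cadherins and adhesion genes (4 of 14) 10.4, chromatin genes (3 of 19) 8.62, BMP genes (2 of 18) 5.27 and midbrain-hindbrain boundary genes (1 of 13) 3.17. The lists hold few genes, some genes stand in several lists, and no test was made.

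The activin-free lists did not choose the hotspots and could therefore be compared. At least 4 TFs had an activin-free peak in 1040 of 1321 hotspots (78.7%, 76.4 to 80.9%) and in 13.3% of the regions with 3 TFs, which had fewer TFs to keep. Every TF of the EpiSC lists was listed again in 73.5% of hotspots and 73.3% of regions with 3 TFs. The set of TFs was the same in 844 hotspots (63.9%), 127 held every TF and more, 314 lacked 1 TF and 36 lacked 2 or more. Of the 123 regions with 5 TFs, 94 held all 5 without activin (76.4%). In all, 1018 hotspots (77.1%) lay on 1 of the 3453 regions with 4 or 5 TFs made from the activin-free lists, and 29.5% of those regions lay on a hotspot. Among all merged regions, 25.9% held an activin-free ZIC2 peak, 24.7% one of OTX2, 16.3% SOX2, 25.1% POU5F1 and 25.7% POU3F1.

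By TF, the EpiSC peak lay on an activin-free peak of the same TF in 97.5% of hotspots for POU5F1, 93.6% (POU3F1), 93.2% (OTX2), 87.6% (ZIC2) and 86.1% (SOX2). The order depended on the length of the activin-free lists. With the best 50000 peaks of each, the shares were 54.3% for ZIC2, 72.5% for SOX2, 73.5% for POU3F1, 74.7% for OTX2 and 76.1% for POU5F1. Counted by peak, 92.1% of OTX2 peaks in hotspots were kept against 86.8% in regions with 3 TFs (5.29 points, 3.58 to 6.85, higher on 17 of 20 chromosomes). For SOX2 the shares were 83.1% and 78.8% (4.31 points, 1.97 to 6.49). For ZIC2 (-1.29 points, -4.24 to 1.36) and POU3F1 (0.76 points, -0.99 to 2.32) the intervals included 0, and for POU5F1 the difference was -0.82 points (-1.80 to -0.05). Peaks of higher score were kept more often, so OTX2 peaks were also compared within sixths of the score. The share was higher in hotspots in all 6 sixths, and the interval excluded 0 in 3. In the lowest sixth, 75.8% of OTX2 peaks were kept in hotspots, 63.5% in regions with 3 TFs and 50.8% in regions of OTX2 alone. For SOX2 the share was higher in hotspots than in regions with 3 TFs in 5 of 6 sixths, with the interval above 0 in 2. It was higher in 4 sixths for ZIC2 (interval above 0 in 1), in 3 for POU3F1 (0) and in 0 for POU5F1. In the lowest sixth the POU5F1 difference was -6.34 points (-12.5 to -1.64).

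TFs missing from a hotspot in EpiSCs were sometimes listed there without activin, except ZIC2. A ZIC2 peak was present in 7 of the 662 hotspots that lacked it (1.06%, 0.513 to 2.17%) and over the middle base of the core in 0. POU5F1 was listed in 34 of 85 such hotspots (40%), SOX2 in 75 of 213 (35.2%), POU3F1 in 36 of 146 (24.7%) and OTX2 in 22 of 92 (23.9%). The smallest of their differences from ZIC2, that of OTX2, was 22.9 points (15.2 to 32.5). These 4 shares were also higher than in regions with 3 TFs that lacked the TF, by 10.9 points for OTX2 (3.28 to 20.6), 21.2 for SOX2, 20.4 for POU5F1 and 17.5 for POU3F1, while ZIC2 was at 0.863% there. Over the middle base of the core alone, which does not depend on the width of the region, the differences were 10.3, 5.95, 10.1 and 14.2 points in the same order, with intervals above 0. The lists differ in how many new peaks they hold. Of the activin-free peaks, 91.2% of those of ZIC2 lay on an EpiSC peak of the same TF, as did 86.8% (POU3F1), 67.5% (OTX2), 55.9% (SOX2) and 47.1% (POU5F1). Library depth and the change of culture cannot be told apart with 1 library each.

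**Figure D5:**
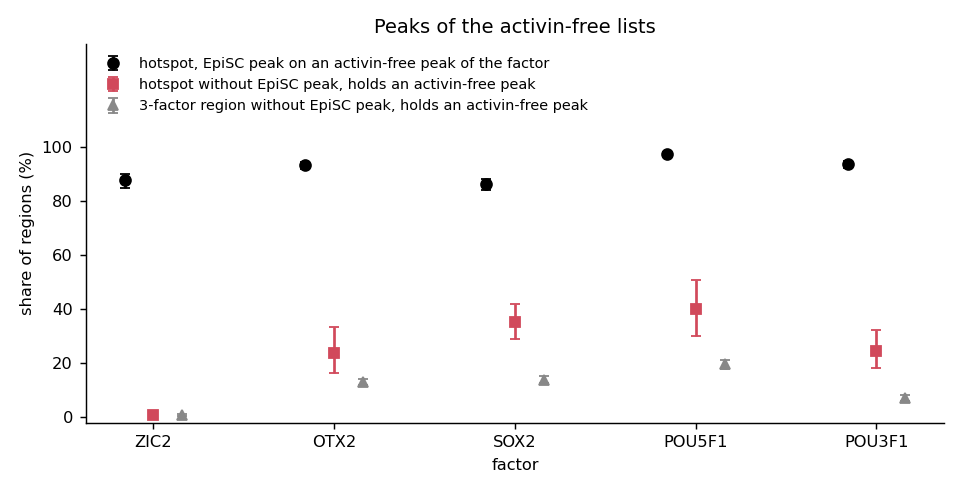
Share of regions (%) by TF with 95% Wilson intervals. Circles are hotspots whose EpiSC peak lay on an activin-free peak of the TF, squares are hotspots without the EpiSC peak that held an activin-free peak, and triangles are the same for regions with 3 TFs. Circles lie between 86.1% and 97.5%, and the square of ZIC2 at 1.06% is below the others.

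Scores in the activin-free lists were higher at most hotspots. Where a TF was kept, its activin-free score was above its EpiSC score in 96.7% of hotspots for POU5F1 (medians 864 and 209), 87.3% for OTX2 (294 and 154), 80.1% for SOX2 (213 and 126), 70.7% for ZIC2 (356 and 283) and 62.4% for POU3F1 (577 and 502). The median scores of the whole lists were also higher without activin, from 133 to 208 for POU5F1 and from 99.2 to 115 for OTX2. Scores depend on library depth and are not levels of binding that can be compared between libraries.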

How the data were processed

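ChIP-seq of 5 tagged TFs in EpiSCs and activin-free EpiSCs was analysed from 10 peak lists, 1 library each. Per the labels, the authors used Bowtie2 and the build mm9 to align reads and called peaks per library with MACS against input DNA. The deposited score is MACS's -10 log10 of the p-value, and the deposited positions are peak starts and ends on mm9. Depth is unknown.

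All peaks on chromosomes 1 to 19 and X were used and those sharing 1 bp were merged. TSSs and genes came from GENCODE vM1, and sequence from NCBIM37 (mm9). Shares have 95% Wilson and differences 95% Newcombe intervals. The members and gene lists were chosen with earlier results of these data known. Named hotspots were the 10 regions with 5 TFs and the 2 per missing TF with the highest lowest score, up to 3 per gene list, the 10 genes with most hotspots, and those at the TF genes. Numpy 2.4.6 and pandas 2.3.3 were used, and the counting steps were tested on simulated data. Alternatives were other score, width, list length, merging, TSS, overlap and window settings. The hotspot of 1 listed gene is not reported here.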

Additional observations from a re-analysis of the deposited data

How the results depend on the processing

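The number of hotspots depended on the peaks used. It was 371 (29 with 5 TFs) at EpiSC scores of at least 100, 393 (30) with the best 50000 peaks of every list by score, 797 (59) with peaks under 2000 bp, and 617 (32) as stretches with 4 or 5 TFs over 1 base. In the same order, ZIC2 was missing in 50.6%, 65.3%, 48.8% and 66.5% of regions with 4 TFs. A TSS was within 5 kb in 28.0%, 29.0% and, over 1 base, 17.0%, and within 50 kb in 65.2%, 64.6% and 56.4%. With TSSs of all transcripts these were 30.8% and 73.4%, and from the nearest edge 27.0% within 5 kb. The share of TFs kept without activin was 97.8%, 96.8%, 90.5% and 93.0% in that order, against 92.1%. With activin-free scores of at least 100 it was 82.0%, and 51.5% of hotspots held at least 4 TFs. With 50000 activin-free peaks per list these were 71.8% and 33.7%. Genes nearest to a hotspot were 3.10% with all transcripts. In windows of 600 bp, cores exceeded flanks by 10.0 points for the octamer and 3.94 for SOX letters, and with flanks at 2000 bp the octamer by 8.21. Without the ZIC2 list, chosen after seeing the data, there were 770 regions, with a TSS within 5 kb in 13.4% and within 50 kb in 55.8%, and 93.7% of TFs were kept. The TSS difference from regions with 3 TFs within 5 kb, an alternative also chosen after seeing the data, turned from 5.78 to -0.24 points (-3.13 to 3.03) over 1 common base. It was 9.63 points at scores of at least 100 and 10.1 with the best 50000 peaks. With those 50000 peaks POU3F1 (13.5%) was missing more often than SOX2 (11%), and with 50000 activin-free peaks ZIC2 was kept least often (54.3%). Against flanks at 2000 bp, ZIC letters differed by -2.31 points (-4.33 to -0.18). The cause of these moves was not tested. No paired analysis was possible because each TF had 1 library per culture and the results come from no test.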

Other observations

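In the printed Shisa3 window a SOX match is followed at once by POU-like letters. The joined letters TTGTNATGC, chosen after these windows were seen and searched on both strands, were in 50 of 1321 hotspot cores (3.79%, 2.88 to 4.96%), 2.08% of cores with 3 TFs and 1.02% of cores with 1. They were in 0.833% of the hotspot flanks. Among regions with peaks of SOX2, POU5F1 and POU3F1 they were in 3.65% of hotspot cores and 2.25% of cores with 3 TFs. In hotspots without a SOX2 peak they were in 7 of 213 cores (3.29%, 1.60 to 6.63%). No test was made, since the letters were chosen from the data.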
